A study of Mus musculus with 3 samples.

Results

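In the mouse neocortex (NCx) at P1 and P5, 339 of 5481 cells labelled through *Sst*-Cre held at least 3 transcripts of *Nos1* and no transcript of *Dach1* or *Lypd1*. These cells were selected on 3 genes. *Nos1* encodes neuronal nitric oxide synthase (GRCm38, chromosome 5, 117781032 to 117958840, plus strand). *Dach1* encodes a transcriptional regulator (chromosome 14, 97786853 to 98169765, minus strand), and *Lypd1* encodes a membrane-anchored modulator of nicotinic receptors (chromosome 1, 125867622 to 125913101, minus strand). A cell entered the group with over 700 genes detected, under 10% of its UMIs from mitochondrial genes, at least 3 *Nos1* UMIs and 0 UMIs of the other two genes. A UMI (unique molecular identifier) marks 1 captured mRNA molecule. The rule selected 139 of 2501 retained cells at P1 (5.56%, exact 95% interval 4.69 to 6.53) and 200 of 2980 at P5 (6.71%, 5.84 to 7.67). They made up 50.5% of the 275 *Nos1*-high cells at P1 and 45.8% of the 437 at P5, and they are called negative cells in what follows. Among the other *Nos1*-high cells, 89 at P1 and 25 at P5 held *Dach1* only, 44 and 197 held *Lypd1* only, and 3 and 15 held both.

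Cortical neurons that make both SST and neuronal nitric oxide synthase are rare. They are inhibitory cells, known for strong *Npy* and *Chodl* expression, for axons that leave the local circuit and reach distant cortical areas, and for activity during sleep. They arise, like other SST+ neurons, from the medial ganglionic eminence (MGE). Nitric oxide acts on neighbouring cells through soluble guanylyl cyclase and cGMP, and NPY and SST are released as peptides. The study calls them long-range projection (LRP) neurons and compares them with Martinotti cells (MCs) and with non-Martinotti SST+ neurons (nMCs).

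The cells came from *Sst*-Cre; RCEloxP mice, in which Cre driven from the *Sst* locus switches on a GFP reporter in any cell with a history of *Sst* expression. All groups compared carry these same alleles, and no treatment was given. Live GFP+ cells were sorted from the pooled NCx of 6 embryos at E16.5, 3 pups at P1 and 3 pups at P5, so that each stage is 1 library, the animals cannot be separated, and stage cannot be told apart from library. The P5 tissue alone was also exposed to trypsin and DNase during dissociation. With 1 library per stage, no test was made. Every level below is a sum of UMIs over the cells of a group, scaled to a total of 1000000 per group (CPM), and every interval is an exact 95% interval that covers counting error only.

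The P1 and P5 libraries held 15654107 and 13429055 UMIs in 4440 and 3406 cells, of which 56.3% and 87.5% were retained. At P1, 36.4% of the cells were over the mitochondrial limit. The barcodes of the P1 and P5 libraries overlapped at 6 cells, 1 of them a negative cell. No doublets were removed. Negative cells held a median of 3353 UMIs (lowest 950, highest 23278) at P1 and 2578 UMIs (1211 to 18571) at P5.

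The negative cells were first checked against the markers of LRP neurons that the rule did not use. *Chodl*, a C-type lectin-like membrane protein gene (chromosome 16, 78930948 to 78951733, plus strand), stood at 289 CPM (245 to 338) in negative cells and 13.2 CPM (11.0 to 15.8) in cells without *Nos1* at P1. At P5, it stood at 399 CPM (351 to 451) against 7.87 CPM (6.30 to 9.72). At least 1 *Chodl* UMI was seen in 57.6% of negative cells at P1 and 61% at P5, against 3.43% and 2.71% of the cells without *Nos1*, whose median depths were 3191 and 4245 UMIs. With every cell thinned to 2000 UMIs, these shares were 45.5% and 51.9% against 2.04% and 1.28%. *Chodl* was thus detected in only part of the negative cells, and at P1 the intervals of the unthinned share (48.9 to 65.9) and the thinned share (35.9 to 55.2) both included 50%. Partial detection is not particular to them. *Chodl* was found in 68.5% and 60% of *Dach1*-only cells (thinned 55.4% and 47.4%). In *Lypd1*-only cells, it was found in 86.4% and 78.7% (thinned 65.1% and 62.6%). As a reference for free RNA, *Chodl* was found in 2 of 36 cells with excitatory neuron markers at P1 (5.56%, median 6429 UMIs), of which 3 are themselves negative cells. At P5, it was found in 0 of 19 such cells (median 4954 UMIs), which allows a share of up to 15.8% with 3 counts as the limit of a count of 0 (exact upper bound 17.6%).

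*Npy*, the neuropeptide Y gene, was present in 98.6% of negative cells at P1 and in all 200 at P5, against 69.5% and 53.4% of cells without *Nos1* and 61.1% and 26.3% of cells with excitatory markers. Its median over single cells was 33509 CPM at P1 (quartiles 24645 and 46485, highest 116471) and 38021 CPM at P5 (quartiles 23893 and 52090, highest 170761). In cells without *Nos1*, the median was 455 and 157 CPM. The quartiles of the 2 populations were far apart, although the ranges overlapped, with cells of up to 75188 and 125859 CPM among those without *Nos1*. *Sst* itself was found in 99.3% and 99.0% of negative cells and in 69.7% and 68.2% of cells without *Nos1*, and in negative cells it stood at 6609 CPM (6392 to 6832) at P1 and 5060 CPM (4887 to 5238) at P5.

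The vesicular transporter, *Gad1* and *Lhx6* were within 2-fold of the level of the surrounding SST+ cells. *Slc32a1*, the vesicular GABA transporter gene, stood at 228 CPM in negative cells and 223 CPM in cells without *Nos1* at P1, and at 385 and 453 CPM at P5. *Gad1*, which encodes a GABA-synthesizing enzyme, stood at 325 and 288 CPM at P1 and at 177 and 147 CPM at P5. *Lhx6*, the transcription factor that marks the MGE lineage, stood at 627 and 751 CPM at P1 and at 612 and 470 CPM at P5.

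**Figure D1:**
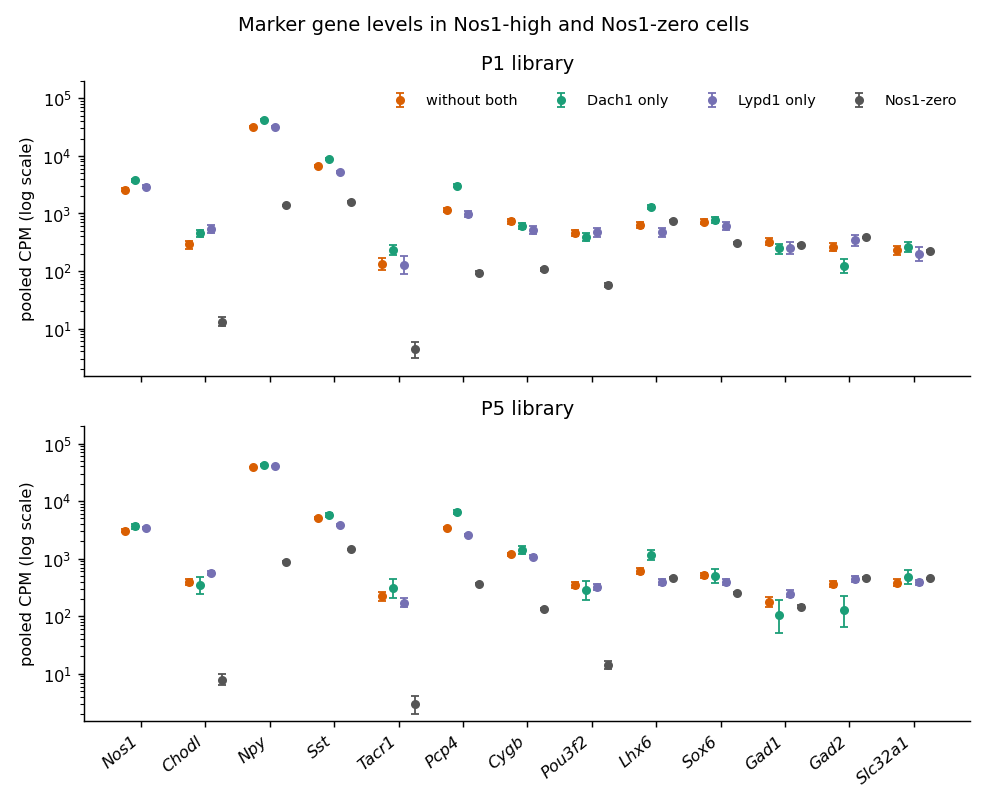
Pooled CPM (log scale) of 13 marker genes in *Nos1*-high cells without *Dach1* and *Lypd1*, with *Dach1* only or with *Lypd1* only, and in *Nos1*-zero cells, in the P1 and P5 libraries. Bars are exact 95% Poisson intervals, which cover counting error only, and no point is drawn for a group at 0 UMIs. *Chodl*, *Npy*, *Tacr1* and *Pcp4* stood over 5 times higher in all 3 *Nos1*-high groups than in *Nos1*-zero cells, while *Slc32a1* lay between 198 and 486 CPM in every group.

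Markers of other cell types were then summed. The 24 glia, vessel and blood markers summed to 3 UMIs (P1) and 4 UMIs (P5) in negative cells, where 23 and 22 markers were at 0. The 7 markers of *Meis2* cells gave 60.4 CPM at P1 and 22.1 CPM at P5, below the 147 and 67.1 CPM of cells without *Nos1*, and *Meis2* was at 0 at P5. The 13 markers of caudal ganglionic eminence interneurons gave 111 CPM at P1, against 177 CPM without *Nos1*, and 202 CPM at P5, against 278 CPM. *Vip*, *Sncg* and *Chat* were at 0 in both libraries, but *Sncg* and *Chat* were also at 0 in the cells without *Nos1* of both, and *Vip* in those at P5.

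The excitatory neuron list was the exception. Its 11 markers gave 160 CPM (128 to 198) in negative cells at P1 against 57.4 CPM (52.5 to 62.5) without *Nos1*, and 12.6 CPM (5.45 to 24.9) against 26.0 CPM at P5. At P1, 72 of the 73 UMIs of *Neurod2*, *Neurod6*, *Slc17a6*, *Slc17a7* and *Tbr1* came from 3 of the 139 negative cells, with 4347 to 23278 UMIs each. All 35 UMIs of *Slc17a7*, the vesicular glutamate transporter gene, were in these 3 cells. No negative cell at P5 held 5 or more UMIs of these markers. Results that rest on the 3 cells are given below without them.

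The question whether depth accounts for the missing genes was taken up first, since *Dach1* and *Lypd1* are themselves sparse. Among *Dach1*-only cells, 57.3% at P1 and 64.0% at P5 held exactly 1 *Dach1* UMI, and among *Lypd1*-only cells 61.4% and 45.7% held exactly 1 *Lypd1* UMI. The pooled level of *Dach1* in the cells that hold it, 424 CPM at P1 and 391 CPM at P5, corresponds to 1.42 and 1.01 UMIs at the median depth of a negative cell. For *Lypd1*, 358 and 545 CPM correspond to 1.20 and 1.40 UMIs. These levels are biased upwards, because the cells were chosen for holding the gene. Over all *Nos1*-high cells, the level of *Dach1* corresponds to 0.48 and 0.0847 UMIs and that of *Lypd1* to 0.294 and 0.725 UMIs at the same depths.

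The share of *Nos1*-high cells that lacked both genes was lower in each deeper bin at P1, and at P5 as well. At P1, it was 70.6% of 17 cells with under 1500 UMIs, 67.6% of 74 cells with 1500 to 3000, 52.1% of 96 cells with 3000 to 5000, and 30.7% of 88 cells with 5000 or more (21.3 to 41.4). For P5, the corresponding values were 76.5% of 34, 54.9% of 173, 39.3% of 150 and 25.0% of 80 cells (16 to 35.9). The deepest and the shallowest bins did not overlap in their intervals. Thinning, which can only remove UMIs of the 2 genes and so fixes the direction, gives the size of the effect of depth. Of the 239 *Nos1*-high cells at P1 with 2000 UMIs or more, 46.0% (39.6 to 52.6) were negative at full depth and 68.2% (61.9 to 74.1) after thinning to 2000 UMIs. Of the 341 at P5, 39.6% (34.4 to 45.0) became 58.1% (52.6 to 63.4).

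**Figure D2:**
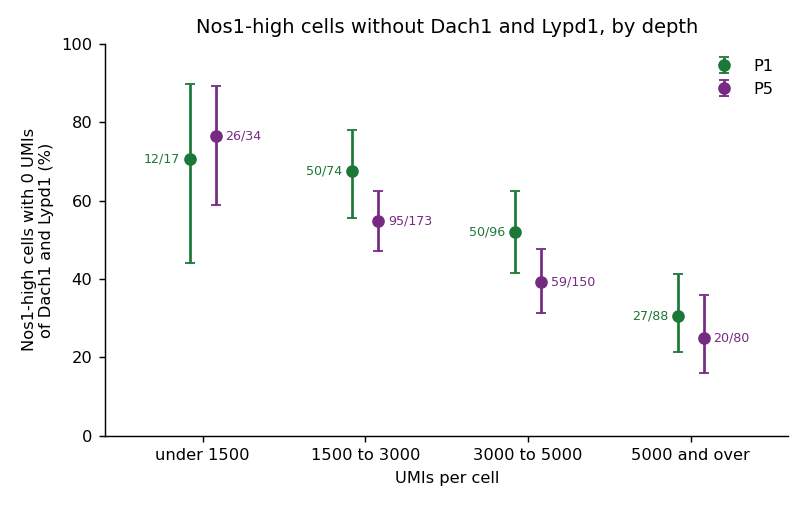
Share of *Nos1*-high cells with 0 UMIs of *Dach1* and *Lypd1* (%) in 4 bins of UMIs per cell, at P1 and P5, with exact 95% binomial intervals and the counts of cells beside each point. The share was lowest at 5000 UMIs and over in both libraries, at 27 of 88 cells and 20 of 80 cells. A count of 0 can still come from sampling at that depth.

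The share was above 0 in the deepest bin of both libraries, where a count of 0 can still come from sampling. Whether any of that share goes beyond depth was not tested. Negative cells with 5000 UMIs or more numbered 27 at P1 (median 6185 UMIs) and 20 at P5 (median 7362 UMIs). At those medians, the level of *Dach1* in the cells that hold it corresponds to 2.62 and 2.88 UMIs, and that of *Lypd1* to 2.21 and 4.01 UMIs. The level over all *Nos1*-high cells, which is not raised by that choice, corresponds to 0.885 and 0.242 UMIs of *Dach1* and 0.542 and 2.07 UMIs of *Lypd1*. These deep negative cells were compared with the 61 and 60 *Nos1*-high cells that held either gene and also had 5000 UMIs or more. The depths were not matched within that bin, and the median of these others was 6581 UMIs at P1 and 6503 at P5. The deepest negative cells held 23278 and 18571 UMIs, and deeper cells weigh more in a pooled level. *Chodl* stood at 191 CPM in the negative cells and 492 CPM in the others at P1, a ratio of 0.389, and at 167 and 489 CPM at P5, a ratio of 0.342. *Chodl* was found in 15 of 27 and 11 of 20 of the deep negative cells and in 52 of 61 and 54 of 60 of the others. *Nos1*, which the rule used, stood at 2146 against 3580 CPM at P1 and at 1451 against 3155 CPM at P5.

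The other LRP markers were not all lower in the deep negative cells. *Pcp4*, which encodes a calmodulin regulator, had a ratio of 0.445 at P1 and 0.575 at P5, with 985 and 1544 CPM in deep negative cells. The others pool cells with *Dach1* and cells with *Lypd1*. At all depths, *Pcp4* stood at 3036 CPM in *Dach1*-only and 974 CPM in *Lypd1*-only cells at P1, and at 6395 and 2612 CPM at P5. The part of this mix in the ratios was not tested. *Lhx6* had ratios of 0.518 and 0.860, and its log2 interval at P5 (-0.67 to 0.22) included 0. For *Npy*, the ratio was 0.727 and 0.642, but the median over single cells at P1 was close, at 33470 CPM against 34271 CPM, and at P5 it was 23526 against 37399 CPM. *Pou3f2*, a POU-domain transcription factor gene, had ratios of 0.752 and 0.442, and its log2 interval at P1 (-0.87 to 0.03) included 0. *Cygb* had ratios of 1.12 and 0.865, with intervals that included 0 in both libraries (-0.17 to 0.48 and -0.50 to 0.08). *Tacr1* had ratios of 0.611 and 0.609, and its interval at P5 (-1.55 to 0.04) included 0. *Gad2* and *Slc32a1* had log2 intervals that included 0 in both libraries (-0.06 to 0.91 and -0.36 to 0.48 for *Gad2*, -0.59 to 0.41 and -0.39 to 0.44 for *Slc32a1*). *Gad1* had ratios of 1.16 and 0.533, and its interval at P5 (-1.66 to -0.22) lay below 0. The ratio of *Sst* was 0.758 at P1 and 1.25 at P5, on opposite sides of 1. At P1, 2 of the 27 deep negative cells carried excitatory markers, and without them the ratios of *Chodl* and *Npy* were 0.450 and 0.831. A minimum of 3 *Nos1* UMIs admits deeper cells at a lower *Nos1* level, and its part in these ratios was not tested.

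Values on either side of the thresholds were as follows. Cells with exactly 3 *Nos1* UMIs (21 at P1 and 17 at P5) had an *Npy* level of 23235 and 32613 CPM. Cells with exactly 2 *Nos1* UMIs that lacked both genes (28 and 18) had 14010 and 25842 CPM, and those with exactly 1 (111 and 66) had 4990 and 7089 CPM. *Nos1*-high cells with exactly 1 UMI of *Dach1* and *Lypd1* together (78 and 106) had 38654 and 44058 CPM. *Npy* was thus lower at each step below the *Nos1* threshold, including the step across it. *Chodl* stood at 247, 192 and 55.2 CPM in cells with exactly 3, 2 and 1 *Nos1* UMIs at P1, and at 230, 91.0 and 31.7 CPM at P5.

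Negative cells were next compared with cells of the same library that held no *Nos1* UMI, 2067 at P1 and 2433 at P5. Of 6373 genes with a mean of at least 20 CPM over the 2 groups in each library, 129 (2.02%) were at least 2-fold higher in negative cells in both libraries and 159 (2.49%) were at least 2-fold lower. The log2 ratios are of CPM plus 1, which understates the ratio of low genes, and the median over all compared genes was -0.06. The LRP list holds the first 50 genes of a longer list of the study, in its own order and without *Nos1*, *Dach1* and *Lypd1*. The authors chose that list on these same libraries, so their direction is not independent evidence. All 50 were compared, 44 were higher by 2-fold in both libraries, none was lower, and the median log2 ratio was 2.68. This is not particular to negative cells. At a mean of 50 CPM, 46 of 49 LRP genes were not 2-fold apart from *Dach1*-only cells in both libraries. From *Lypd1*-only cells, 48 of 49 were not.

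Genes with a mean of at least 50 CPM in each library were ranked by the smaller ratio over both libraries. The highest of these was *Tacr1*, the substance P receptor gene, at 132 CPM against 4.34 CPM at P1 (log2 4.64) and 222 against 2.93 CPM at P5 (log2 5.83). *Npy* followed at log2 4.55 and 5.46, and *Chodl* at 4.35 and 5.49. *Ptn*, which encodes the secreted growth factor pleiotrophin, stood at 2488 against 186 CPM and 2217 against 128 CPM. *Sfrp1* encodes a secreted inhibitor of Wnt ligands, with log2 values of 3.23 (P1) and 5.26 (P5). *Rgma*, a repulsive guidance cue gene, *Syt6*, a synaptotagmin gene, *B3gat1*, an enzyme gene for the HNK-1 carbohydrate, *Col25a1*, a membrane collagen gene, and *Trib2* and *Fam46a* all lay between log2 2.99 and 4.58 in both libraries. *Pcp4* was at 1165 against 93.3 CPM and at 3408 against 369 CPM.

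Under the same filter, the lowest ratios included those of several transcription factor genes. *Nr2f2* (COUP-TFII) had 1 UMI in negative cells at P1 and 6 at P5, or 1.89 and 9.46 CPM, against 135 and 146 CPM without *Nos1*. *Zeb2*, which encodes a zinc finger transcription factor of MGE-derived interneurons, stood at 128 against 1452 CPM and 75.7 against 706 CPM. *Mef2c*, a MADS-box transcription factor gene, stood at 323 against 2331 CPM and 189 against 1471 CPM. *Reln*, the reelin gene, gave log2 values of -2.48 (P1) and -3.64 (P5). *Nr2f1*, *Npas3*, *Tshz3*, *Igsf3*, *Kctd12*, *Galntl6*, *Grm3* and *Sez6l* completed the list, each between log2 -3.93 and -2.14 in both libraries. As lists, 7 of the 9 MC markers compared and 7 of the 12 nMC markers compared were lower by 2-fold. Among all genes compared, 2.49% were. No marker was higher, and the medians were -2.12 and -1.60. A marker that passed the filter on the mean through cells without *Nos1* could not be called higher, so nothing is read from that absence. Without that filter, the 15 MC markers summed to 1016 CPM in negative cells and 2167 CPM without *Nos1* at P1. At P5, they summed to 1560 and 4013 CPM. The 15 nMC markers summed to 3220 and 9329 CPM at P1 and to 2094 and 5664 CPM at P5. The peptide genes *Cck* and *Tac1* had 0 UMIs in negative cells at P5, so *Cck* was at least 14.4-fold lower and *Tac1* at least 10.7-fold lower there, with 3 UMIs over the group as the floor.

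**Figure D3:**
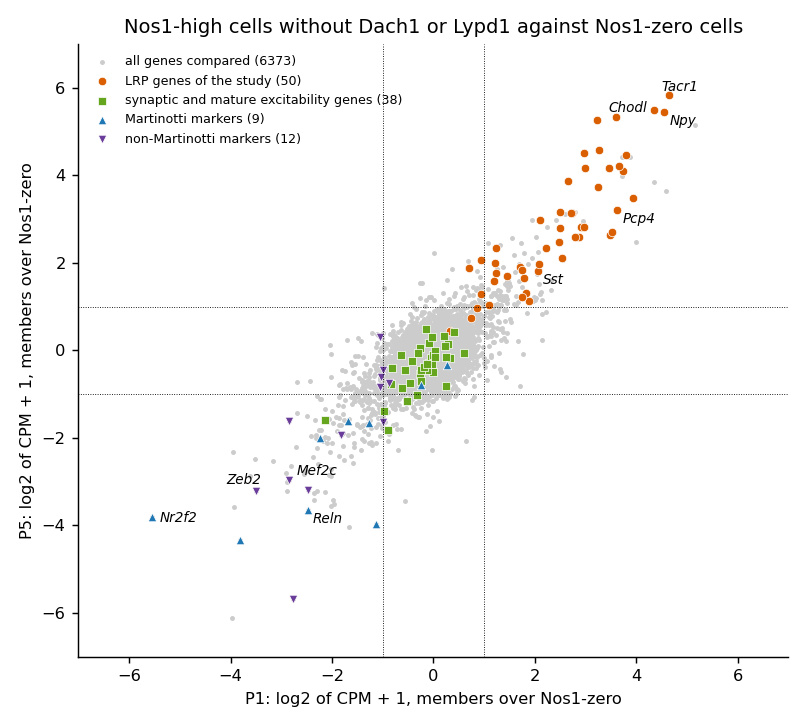
Log2 ratio of CPM plus 1 between *Nos1*-high cells without *Dach1* or *Lypd1* (members) and *Nos1*-zero cells, at P1 (x axis) and P5 (y axis), for the 6373 genes compared, with the LRP, synaptic, MC and nMC lists in colour and dotted lines at 2-fold. The LRP genes lie at the upper right, with *Tacr1* at 4.64 and 5.83, MC and nMC markers lie at the lower left, and the synaptic genes lie near 0.

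Signalling, guidance and transcription factor genes were then read by role, where 2.02% of all 6373 genes compared were higher and 2.49% lower. Most genes of these lists were not 2-fold apart from the other *Nos1*-high groups in both libraries. For *Dach1*-only cells, this held for 12 of 13 nitric oxide and cGMP, 21 of 21 receptor, 23 of 25 guidance and 20 of 22 transcription factor genes. For *Lypd1*-only cells, it held for 11 of 11, 19 of 19, 23 of 24 and 18 of 20. Of 19 nitric oxide and cGMP genes compared, 4 were higher and none was lower. *Gucy1a1* and *Gucy1b1*, the 2 subunit genes of soluble guanylyl cyclase, which nitric oxide activates, had log2 ratios of 1.23 and 1.25 at P1 and 2.34 and 1.85 at P5. *Pde1a*, a calmodulin-dependent phosphodiesterase gene that degrades cyclic nucleotides, stood at 362 against 30.7 CPM and 490 against 74.2 CPM. *Cygb*, the cytoglobin gene, stood at 725 against 108 CPM and 1189 against 134 CPM. Negative cells therefore had higher levels of both cyclase subunits, while *Nos1ap*, *Dlg4* and the cofactor genes *Pts* and *Qdpr* stayed within 2-fold in both libraries. The difference in *Nos1* itself was set by the rule and is not a result.

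Of 14 peptide genes and peptide-processing genes compared, 6 were higher and 3 were lower. The higher ones were *Npy*, *Sst*, *Penk* (log2 2.24 and 2.82), which encodes enkephalins, *Crhbp*, and the processing enzyme genes *Pcsk2* and *Pam*. *Cort*, the cortistatin gene, was lower together with *Cck* and *Tac1*, at 22.7 against 170 CPM at P1 and 178 against 550 CPM at P5. Of 29 receptor genes, 7 were higher, and *Drd1*, a dopamine receptor gene, was among them at 92.5 against 2.89 CPM and 56.8 against 3.66 CPM. *Chrm2*, *Adra1a*, *Gabra2*, *Gabrb1* and *Grik4* were the others, beside *Tacr1*. The 6 lower receptor genes included *Cnr1*, the cannabinoid receptor gene (log2 -2.04 and -2.33), *Gabrg3* and *Grin2d*.

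Of 36 axon growth and guidance genes, 6 were higher and 6 lower. The netrin gene *Ntn1* was among the higher genes, at 54.7 against 0.556 CPM at P1 and 41.0 against 0.183 CPM at P5. Its level without *Nos1* rests on 5 and 2 UMIs. *Ntn1*, like *Drd1* above, passed the filter on the mean through negative cells, so that it could only be called higher. The netrin receptor gene *Unc5c*, the Slit receptor gene *Robo1*, *Epha4*, *Ntng1* and *Rgma* were the other higher genes, and *Robo2*, *Sema6a*, *Draxin*, *Tenm3*, *Cntn4* and *Cntn6* were lower. Of 31 transcription factor genes, 10 were higher, among them *Pou3f2* (459 against 57.5 CPM and 348 against 14.5 CPM), *Sp9*, *Zeb1*, *Tshz2*, *Sox1*, *Sox2* and *Lmo4*, and 7 were lower. In the MGE lineage list of 15 genes, *Sox6* and *Sp9* were higher and *Satb1* and *Maf* were lower.

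In the general neuronal lists, the share of genes past 2-fold was near that of all genes (2.02% higher and 2.49% lower). None of 20 immature neuron genes passed 2-fold in either direction in both libraries, with a median log2 ratio of 0.01. Of 38 synaptic and excitability genes, *Kcnq3*, a potassium channel gene, was lower (log2 -2.14 and -1.59) and none was higher. Of 14 stress and dissociation genes, *Jun* was higher, at 210 against 74.2 CPM and 330 against 113 CPM. Mitochondrial shares were a median of 4.13% in negative cells against 6.18% without *Nos1* at P1, and 3.1% against 4.44% at P5.

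Within *Nos1*-high cells, the groups most like the negative cells were those with *Dach1* only and with *Lypd1* only. Against *Dach1*-only cells, 8 of 3251 genes (0.246%) were 2-fold higher in negative cells in both libraries and 13 (0.4%) were lower. Against *Lypd1*-only cells, 5 of 3228 genes (0.155%) were higher and 1 (0.031%) was lower. These counts are below the 129 and 159 genes that set negative cells apart from cells without *Nos1*, but the comparisons differ in the number of cells, in the minimum level, which was 50 CPM here, and in the genes that passed it, and the difference was not tested.

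*Rbfox1*, a splicing regulator gene, stood at 185 CPM in negative cells and 43.1 CPM in *Dach1*-only cells at P1, and at 169 CPM against 0 UMIs at P5, at least 5.32-fold higher with 3 UMIs as the floor. *Pcdh9*, *Crhbp* and *Ncam2* were also higher than in *Dach1*-only cells. *Hhip*, which encodes a binding protein and antagonist of Hedgehog ligands, was lower, at 41.5 against 206 CPM and 59.9 against 264 CPM. The retinoic acid receptor gene *Rarb*, *Mgll*, *Plcb4* and *Lmo3* were lower too, between log2 -1.94 and -1.16.

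Against *Lypd1*-only cells, *Spock1*, *Epha4*, *Zeb2*, *Mef2c* and *Fstl5* were the 5 higher genes. *Spock1*, a proteoglycan gene, stood at 370 against 107 CPM at P1 and 196 against 70.2 CPM at P5. *Zeb2*, low in all *Nos1*-high groups, stood at 128 against 22.8 CPM and 75.7 against 31.2 CPM. *Zfp385b* was the lower gene, at 28.3 against 72.3 CPM and 30.0 against 78 CPM.

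To set negative cells beside the other groups, genes that separate *Dach1*-only from *Lypd1*-only cells were taken from those cells alone. Of 3095 genes, 42 were 2-fold higher with *Dach1* and 37 with *Lypd1* in both libraries, and the 25 with the largest ratio on each side were used. At P1, the *Dach1*-side genes summed to 6523 CPM in *Dach1*-only cells, 3253 CPM in negative cells and 1594 CPM in *Lypd1*-only cells. The *Lypd1*-side genes summed to 2942, 5420 and 8182 CPM in the same order. At P5, the sums were 6247, 2659 and 1321 CPM on the *Dach1* side and 2970, 7274 and 10062 CPM on the *Lypd1* side. The sums of negative cells lay between those of the other groups on both sides and at both stages. The choice of genes farthest apart in those groups favours this for any further group, so nothing is read from it. The intervals did not overlap, but they cover counting error only.

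Gene by gene, the level of negative cells lay between the other groups for 50 of 50 genes at P1 and 49 of 50 at P5, and it was nearer to *Lypd1*-only cells for 29 and 38 genes. The genes were chosen as those farthest apart in these groups and libraries, so any further group tends to fall between them, and nothing is read from the count. Cells without *Nos1* lay between for 29 genes at P1 and 31 at P5. *Lhx6*, on the *Dach1* side, stood at 1307, 627 and 468 CPM in *Dach1*-only, negative and *Lypd1*-only cells at P1, and at 1152, 612 and 390 CPM at P5. *Crhbp*, which encodes a corticotropin-releasing hormone binding protein, stood at 71.1, 206 and 331 CPM at P1 and at 74.0, 274 and 447 CPM at P5. An intermediate sum is not particular to negative cells, since cells without *Nos1* had 3170 and 6022 CPM on the 2 sides at P1 and 2951 and 7520 CPM at P5.

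Single negative cells differed among themselves. At P1, 49 of 139 held more UMIs of the *Dach1* side and 87 (62.6%) more of the *Lypd1* side. At P5, 40 of 200 held more of the *Dach1* side and 154 (77.0%) more of the *Lypd1* side. The *Lypd1* side was also the higher sum in cells without *Nos1*, at 6022 against 3170 CPM at P1 and 7520 against 2951 CPM at P5. More UMIs of that side is therefore not particular to negative cells. For comparison, 88.8% and 88.0% of *Dach1*-only cells held more of the *Dach1* side, and 93.2% and 99.0% of *Lypd1*-only cells more of the *Lypd1* side. The genes were chosen to separate these same cells, so their shares are high through that choice and set no standard for negative cells. The *Dach1*-side share of a negative cell had a median of 35.0% at P1 (quartiles 22.5 and 58.3) and 22.4% at P5 (quartiles 12.2 and 41.4). These shares rest on a median of 10 and 15 UMIs per cell on the 2 sides at P1, and 6 and 16 at P5.

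**Figure D4:**
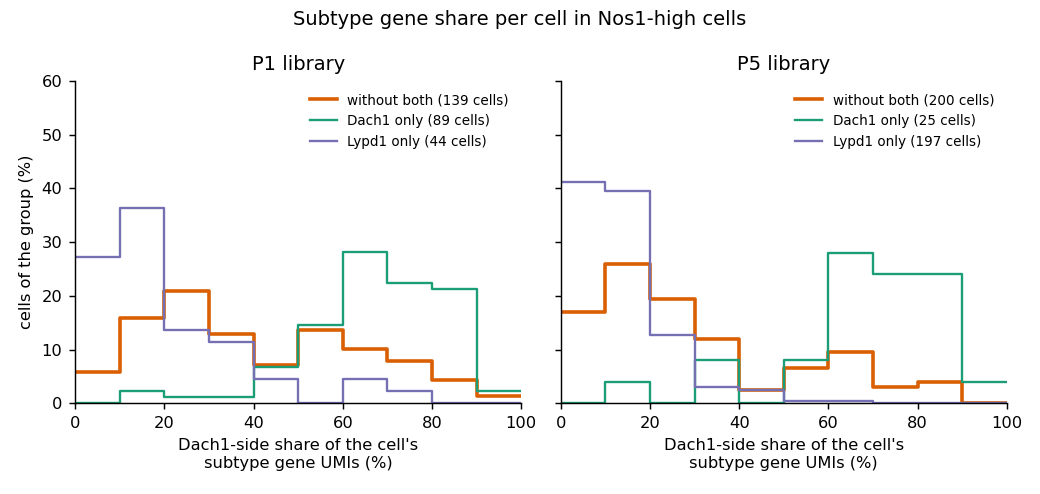
Distribution over single cells of the *Dach1*-side share of subtype gene UMIs (x axis, %, in steps of 10) for *Nos1*-high cells without *Dach1* and *Lypd1*, with *Dach1* only or with *Lypd1* only, as a percentage of each group's cells (y axis). Negative cells spread over the range of both other groups, with medians of 35.0% at P1 and 22.4% at P5, against 68.8% and 70.5% in *Dach1*-only and 16.4% and 11.4% in *Lypd1*-only cells. The genes were chosen on those other groups, whose separation follows from that choice.

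The *Dach1*-side sum of negative cells was lower in the deeper cells at both stages. The *Dach1*-side sum at P1 was 3956 CPM (3619 to 4315) in negative cells under 3000 UMIs and 3027 CPM (2859 to 3202) in those with 3000 or more, and at P5 it was 2986 and 2453 CPM. At P1, 37.1% of the shallower and 33.8% of the deeper negative cells held more of the *Dach1* side, and at P5, 24.8% and 12.7%. The *Lypd1*-side sums at P1 overlapped in their intervals, at 5145 CPM (4760 to 5552) in the shallower and 5508 CPM (5281 to 5743) in the deeper cells. At P5, the *Lypd1*-side sums were 6339 and 7862 CPM. Negative cells under 3000 UMIs had a median share of 37.4% at P1 (62 cells) and 25.0% at P5 (121 cells), and those with 3000 or more had 31.6% (77 cells) and 18.2% (79 cells). At 5000 UMIs or more, the summed *Dach1*-side level was 2266 CPM (2066 to 2479) at P1 and 2338 CPM at P5, and the *Lypd1*-side level was 6214 and 7436 CPM.

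Stage was compared last, with the same ratio in cells without *Nos1* beside each value. In negative cells, 544 of 7122 genes (7.64%) were at least 2-fold higher at P5 than at P1, and 887 (12.5%) were at least 2-fold lower. The median log2 ratio over these genes was -0.14, so that values near it are not a shift. In cells without *Nos1*, 533 of 7285 genes were higher and 657 lower. Of 6707 genes compared in both, 265 were higher at P5 in both populations and 409 were lower in both. Both populations come from the same 2 libraries, so any property of a library enters both.

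Synaptic and excitability genes were mostly above that median in negative cells, where 7.64% of all compared genes were higher at P5 and 12.5% lower. Of 39 compared, 8 were higher at P5, 1 was lower, and the median log2 ratio was 0.48, against 13 higher, none lower and 0.62 for 38 genes in cells without *Nos1*. *Cplx2*, the complexin gene, stood at 342 CPM at P1 and 986 CPM at P5. *Vamp2*, a synaptic vesicle SNARE gene, stood at 310 and 814 CPM, and *Syn1*, the synapsin I gene, at 94.4 and 279 CPM. *Snap25* was the lower gene, at 213 and 99.3 CPM (log2 -1.09), against a log2 ratio of -0.17 without *Nos1*.

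Of 21 immature neuron genes, 5 were lower at P5 in negative cells and 1 was higher, where 12.5% and 7.64% of all compared genes were. In cells without *Nos1*, 6 of 21 were lower and none was higher. *Igfbpl1*, expressed in newborn neurons, stood at 236 CPM at P1 and 15.8 CPM at P5 (log2 -3.82), and its ratio without *Nos1* was -3.68. *Sox11*, *Cd24a*, *Mex3a* and *Bcl11b* were the others, with log2 ratios from -1.62 to -1.05 in negative cells and from -2.31 to -1.07 without *Nos1*. *Tmsb10* was the higher gene.

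The LRP genes were next read by stage, where 7.64% of all compared genes were higher and 12.5% lower. Of 50, *Pcp4* (log2 1.55), *Rasgef1b* and *Cpne4* were higher at P5, *Grik4* and *Pcsk2* were lower, and 45 stayed within 2-fold, with a median of 0.07. In cells without *Nos1*, 35 of these genes were high enough to compare, and 2 were higher and 6 lower. *Chodl* had a log2 ratio of 0.46 in negative cells (0.17 to 0.77) and -0.68 without *Nos1* (-1.17 to -0.34). *Npy* had 0.27 (0.24 to 0.30) and -0.64 (-0.68 to -0.60). Median depth and the mix of *Nos1*-high cells also differed between the stages, and their part in these ratios was not tested.

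Single genes were ranked among those with a mean of at least 50 CPM over both stages. *Tspan17*, a tetraspanin gene, had the highest ratio, at 7.55 CPM at P1 (4 UMIs) and 167 CPM at P5, or log2 4.30 against 2.04 without *Nos1*. *Ucp2*, a mitochondrial carrier gene, stood at 7.55 and 109 CPM, and *Selenom*, a selenoprotein gene, at 83.1 and 664 CPM. *Thy1*, a surface glycoprotein gene of maturing neurons, stood at 28.3 and 230 CPM, with a log2 ratio of 2.98 against 4.0 without *Nos1*. *Cort*, *Grin2d*, *Cib2*, *Arhgdig*, *Ctxn2* and *Tmem91* had log2 ratios of 2.34 to 2.96. The lowest ratios were those of the noncoding RNA genes *A330069E16Rik* (105.7 CPM, and 1 UMI at P5), *Bc1* and *Snhg9*, of *Snrpf*, *Thap1*, *Eef1e1*, *Slc25a5*, *Atxn2l* and *Igfbpl1*, and of *AC160336.1*, between log2 -5.37 and -2.82.

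Genes with a mean of at least 50 CPM in both populations were ranked by how far their ratio differed from that of cells without *Nos1*. On the high side were *C130073E24Rik*, *Tspan17*, *Cib2*, *Ddah2*, *Ctxn2* and *Stag2*, by log2 1.26 to 2.39. The ratio of *C130073E24Rik* in negative cells was itself near 0, at 0.13, and its sign depended on the cell filter. *Ddah2*, which encodes an enzyme that removes methylarginine inhibitors of nitric oxide synthase, stood at 52.9 CPM at P1 and 110.4 CPM at P5 in negative cells, and at 56.0 and 46.5 CPM without *Nos1*. On the low side were *Nrip3*, *Prkcb*, *Slc25a5*, *Vgf*, *Ttll7* and *Tk2*, by log2 -2.04 to -1.38, and the signs of *Prkcb* and *Vgf* in negative cells depended on the cell filter as well. *Nrip3* stood at 45.3 and 89.9 CPM in negative cells and at 16.2 and 138 CPM without *Nos1*. *Slc17a7* was lower at P5, with 35 UMIs at P1 and 1 at P5, and without the 3 cells with excitatory markers it had 0 UMIs at P1.

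**Figure D5:**
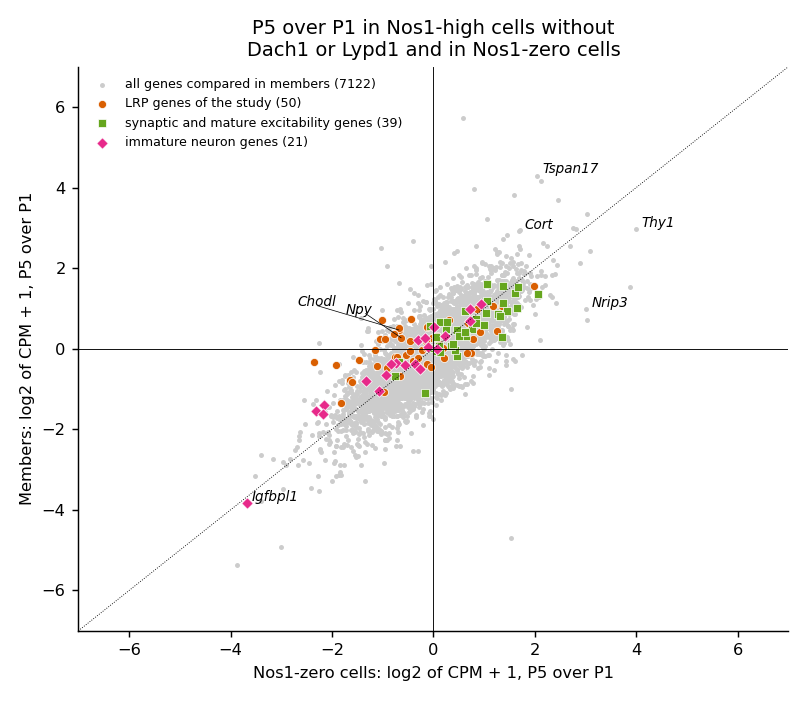
Log2 ratio of CPM plus 1 at P5 over P1 in *Nos1*-zero cells (x axis) and in *Nos1*-high cells without *Dach1* or *Lypd1* (members, y axis), for the 7122 genes compared in members, with the LRP, synaptic and immature neuron lists in colour and a dotted line of equal ratios. *Igfbpl1* lies near the line at -3.68 and -3.82, *Tspan17* above it at 2.04 and 4.30, and *Nrip3* below it at 3.01 and 0.97.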

How the data were processed

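Single cells were profiled on the 10x Genomics platform. The authors ran Cell Ranger 3.0.2 (P1) or 3.1.0 (E16.5 and P5) on GRCm38 and deposited whole-number counts of UMIs for 31053 genes in each cell, without normalization, per the labels and the study's methods. Gene positions come from GENCODE M21, which held 31011 of the gene identifiers.

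Cells were retained with over 700 genes and under 10% mitochondrial UMIs. Counts were summed per group and library in Python 3.11.15 (numpy 2.4.6, scipy 1.17.1, pandas 2.3.3) and expressed as CPM. Ratios carry a pseudocount of 1 CPM, with a mean of at least 20 CPM over the groups compared (50 CPM within *Nos1*-high cells), and their intervals are conditional binomial without pseudocount. Shares have Clopper-Pearson and sums Poisson intervals at 95%. Thinning drew 2000 UMIs per cell and left out 36 and 96 shallower *Nos1*-high cells. Cells are not replicates, so no test was run, doublets were neither called nor removed, and the E16.5 library was used only for cells meeting the rule. The procedure was checked on simulated data.

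The members, the 16 gene lists and the comparisons were chosen with earlier results of these data known. Genes were named from these lists, or as the 12 highest and 12 lowest against *Nos1*-zero cells, the 10 highest and lowest by stage, the 6 with the largest stage difference each way and the 5 within *Nos1*-high cells, at a mean of 50 CPM. That mean was taken over the groups compared in each library, or over both stages for the comparisons by stage. 1 gene that this rule names is not reported here. Alternatives varied the cell filters, the *Nos1* threshold, depth, pseudocount, gene filter and scaling.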

Additional observations from a re-analysis of the deposited data

Results flagged for a closer look

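Several genes had ratios of P5 to P1 that went in opposite directions in negative cells and in cells without *Nos1*. With 1 library per stage, none of these differences was tested, and each value below is log2 in negative cells and then in cells without *Nos1*. Genes higher at P5 in negative cells and lower without *Nos1* were *Chodl* (0.46 and -0.68), *Col25a1* (0.50 and -0.68), *St6galnac2* (0.70 and -1.02), *Npy* (0.27 and -0.64) and *Nnat* (0.36 and -0.78) among the LRP genes. Others were *Ddah2* (1.05 and -0.26), *Epha5* (0.61 and -0.07), *Stmn1* (0.27 and -0.17) and *Tubb2b* (0.21 and -0.31). Without the cells that hold excitatory markers, the values in negative cells were 0.37 for *Chodl*, 0.41 for *Col25a1*, 0.61 for *St6galnac2* and 0.19 for *Npy*.

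Genes lower at P5 in negative cells and higher without *Nos1* were *Slc17a7* (-4.70 and 1.54), *Egr1* (fitted -3.38, with 0 UMIs at P5, and 1.15), *Vgf* (-0.68 and 0.78) and *Scg2* (-0.68 and 0.22). *Slc17a7* had 35 UMIs in negative cells at P1 and *Egr1* had 5, and all of them lay in the 3 cells with excitatory markers. With cells that hold excitatory markers left out of both populations, the ratio of *Slc17a7* turned to 1.37 in negative cells (0 and 1 UMIs) and to -0.29 without *Nos1*, so its opposite directions rest on those cells. *Vgf* was then at -0.55 and *Scg2* at -0.19 in negative cells.

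In the E16.5 library, which entered no comparison, 4 of 3952 retained cells met the same rule (0.101%, 0.0276 to 0.259). They held a median of 14731.5 UMIs, 770 *Npy* UMIs in 3 cells, 1 *Chodl* UMI and 18 UMIs of the excitatory marker *Neurod6*, against a median of 5577 UMIs over all retained cells of that library.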

How the results depend on the processing

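No paired analysis was possible because each stage is 1 library. The share of negative cells among retained cells depended on the cell filter: at P1 it was 6.68% with at least 2 and 4.20% with at least 5 *Nos1* UMIs, 11.4% with a mitochondrial share under 5% and 7.66% after thinning to 2000 UMIs, and at P5 it was 5.44% with at least 5 *Nos1* UMIs and 9.25% with the stricter mitochondrial limit. Thinning before the whole rule raised the negative share of *Nos1*-high cells to 68.0% and 55.6%, and the genes 2-fold apart from *Dach1*-only cells from 21 to 62, with fewer cells and UMIs in each group.

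Counts of genes past 2-fold followed the filter on low genes, which sets how many genes are compared. Against cells without *Nos1*, 242 were higher and 318 lower at a mean of 5 CPM, 429 and 731 with no filter, and 40 and 45 at 100 CPM, a filter added after the data were seen, where 29 of 35 LRP genes were higher. Between stages, the counts were 970 and 1692, 2563 and 2846, and 181 and 150, so that the share of higher genes was 38.0% as reported, 47.4% with no filter and 54.7% at 100 CPM. A pseudocount of 10 CPM gave 550 genes lower at P5.

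The P5 ratio of *C130073E24Rik* (0.13) turned to -0.0091 with at least 2 *Nos1* UMIs, -0.044 with over 1000 genes and -1.25 after thinning. That of *Prkcb* (-0.30) turned to 0.24 and 0.23, and that of *Vgf* to 0.10 and 0.25, under the stricter mitochondrial limit and after thinning. The cause was not tested. Leaving out cells with excitatory markers, also added later, gave 134 higher and 173 lower genes and 45 LRP genes. Of the single-gene values under the alternatives, 1052 stayed within the counting interval, 129 moved outside it in the same direction, and 7 reversed. The filter on the logarithm of total UMIs left the counts of cells and of genes as they were.

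Negative cells lack 2 sparse genes at a median of 3353 and 2578 UMIs, and in a single cell 0 UMIs through shallow sampling and lack of the transcript cannot be told apart. All results rest on 1 library per stage, so animal-to-animal variation is unknown.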
